A study of Mus musculus with 3 samples.

Results

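The genes that carry the Hedgehog signal into a responding cell were followed in developing mouse dental papillae. They are 9 in number: the receptor gene Ptch1, the ligand-binding inhibitor gene Hhip, the co-receptor genes Gas1, Boc and Cdon, the transducer gene Smo and the transcription factor genes Gli1, Gli2 and Gli3. They were chosen by name, from 18193 genes on the array, and each is described by all probe sets to which the platform annotation gives 1 of these symbols and no other, 24 of 45101 probe sets in all. RNA came from ICR mice at embryonic days 16 and 18 (E16 and E18) and postnatal day 3 (P3), from papillae separated by enzyme treatment from lower first molar germs. At least 20 papillae went into each RNA sample and each stage had 1 array, so there were 3 arrays, no replicates and no test between stages. All statements compare 3 pooled samples, and precision is limited by this number of arrays. No allele or drug treatment is named, so the groups differ in age alone as far as the labels tell.

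The papilla is the mesenchyme enclosed by the enamel epithelium, and it forms the dental pulp and the dentin-secreting odontoblasts. In the tooth germ the ligand Shh is made by the epithelium and reaches the mesenchyme as well. Ligand bound by Ptch1, with help from the co-receptors Gas1, Boc and Cdon, releases the inhibition of Smo. Smo then acts at the primary cilium to turn the Gli proteins towards activation. Ptch1, Hhip and Gli1 are classical target genes of the pathway, and the first and second of these restrain it in turn. The question was how these transcripts differed between E16, E18 and P3, within a series that by its title concerns genes down-regulated in papilla and pulp.

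The deposited values are ratios of each array's signal to the middle one of the 3, so the ratios between stages are kept and the level is divided out. A level, called the recovered signal here, was calculated for each probe set from the smallest set of 1-decimal signals that gives the deposited ratios. The true level is that signal or a higher one, never a lower one. For 6 of the 24 probe sets, the brightest of Ptch1 and Gli2 and the brightest 2 of Smo and of Gli3, the number of solutions expected by chance up to the one found was 0.0578 to 0.464. Their levels are the least certain, but their ratios are not touched. The median over all 45037 probe sets other than controls, a signal of 82.0, served as a floor to which lower signals were raised. A probe set counts as measured in a comparison when at least 1 of both arrays reached the floor. With 1 side below it, the difference is a lower bound, written "at least". Of the 24 probe sets 14 were at or above the floor at all 3 stages, and every one of the 9 genes had such a probe set. Another 4 reached it at some stages, and 6 stayed below it throughout.

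With no replicate arrays, the only look at measurement error is the spread between probe sets of 1 gene, which misses any error that a whole sample shares. Over 3982 genes with at least 2 probe sets measured on both arrays, the pooled SD of the log2 difference between P3 and E16 was 0.61. The same SD was 0.61 between E18 and E16 and 0.54 between P3 and E18. A log2 difference of 1, which is 2-fold, served as the threshold.

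Hhip was the gene that fell most at P3 and Gas1 the gene that rose most, while Gli1, Smo and the brightest Ptch1 probe set differed little between E16 and P3. At P3 against E16, 5 of 18 measured probe sets were at least 2-fold lower, where 14.4% of all 25107 measured probe sets were, and 1 was at least 2-fold higher, where 6.03% of all were. The 5 lower ones were 3 of Hhip, 1 of Ptch1 and 1 of Gli2, and the higher one was of Gas1. The median log2 difference of the 18 was -0.22, beside -0.15 for all measured probe sets. At E18 against E16, none of 16 measured probe sets was 2-fold higher (7.65% of all) or 2-fold lower (7.96% of all), and their median was -0.24, beside -0.04. At P3 against E18, 1 of 18 was at least 2-fold higher (3.74% of all) and 2 were lower (10.5% of all), with a median of -0.17, beside -0.13. With counts this small, the shares do not set the 9 genes apart from the array as a whole.

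The scaling between arrays matters for these counts. Among all probe sets past 2-fold between P3 and E16, 29.5% were higher as deposited, 47.7% after quantile normalization and 42.4% after scaling each array by a factor, called median scaling. The median signals of whole arrays were nearly equal already, with 82.0 at E16, 81.8 at E18 and 82.3 at P3, so that factor did not come from them. It made the array medians equal over the 26125 probe sets at or above the floor at 1 stage or more. Quantile normalization moved the median of all measured probe sets from -0.15 to 0.01 on the log2 scale, and median scaling also brought it to 0.01. The members' split of 1 higher and 5 lower became 1 and 2 after quantile normalization and 1 and 3 after median scaling. Hhip and Gas1 kept their directions under both.

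**Figure D1:**
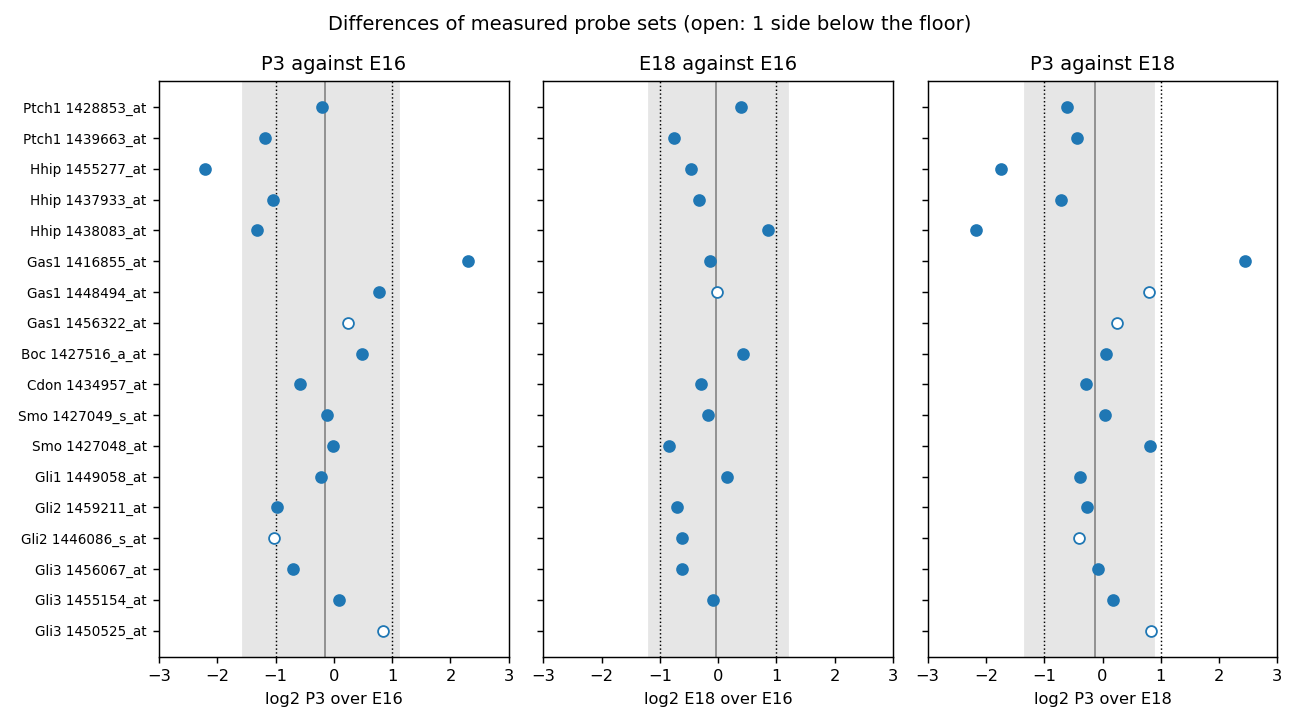
Log2 differences of the 18 probe sets that reached the floor at some stage, for P3 against E16, E18 against E16 and P3 against E18, with 1 array a stage. Filled points were at or above the floor on both arrays and open points on 1, the grey band spans the 5th to 95th percentile of all measured probe sets, the grey line is their median and the dotted lines mark 2-fold. In both comparisons that involve P3, the Hhip points lie left of the grey line and the brightest Gas1 point lies furthest right. Hhip 1437933_at lies inside the grey band in both, and 1438083_at does in P3 against E16.

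Hhip encodes a membrane protein that binds Hedgehog ligands and keeps them from Ptch1. Its brightest probe set, 1455277_at, had recovered signals of 1021.5 at E16, 739 at E18 and 221 at P3. By 1437933_at the signals were 739 at E16, 591 at E18 and 359 at P3, and by 1438083_at they were 338, 610 and 136 in the same order of stages. All 3 were lowest at P3, and the first and second also declined between E16 and E18, whereas the third was highest at E18. Hhip was thus 4.62-fold, 2.06-fold and 2.49-fold lower at P3 than at E16. The second of these was 1.65-fold lower after quantile normalization and 1.83-fold lower after median scaling. The 4th probe set, 1421426_at, stayed below the floor with signals of 48.8 at E16, 67.5 at E18 and 16.8 at P3, a ratio as deposited of 2.90-fold lower at P3 than at E16. All 4 ratios therefore pointed down.

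At P3 against E18 the Hhip differences were 3.34-fold, 1.65-fold and 4.48-fold lower in the same order, so 2 of 3 passed 2-fold. Between E18 and E16 the probe sets went different ways, with log2 differences of -0.47, -0.32 and 0.85, a range of 1.32 over 3 probe sets. Over 4047 genes with at least 2 such probe sets, the range had a median of 0.70. Its 75th percentile was 1.19 and its 90th percentile 1.68. No direction of Hhip at E18 can be given from these 3 probe sets. Relative to the median of all probe sets, the P3 against E16 differences of the 3 Hhip probe sets were -2.06, -0.90 and -1.17 as deposited and -1.98, -0.73 and -1.16 after quantile normalization. Of all measured probe sets, 1.18%, 13.3% and 8.11% lay below these 3 Hhip probe sets as deposited in that comparison, in the same order.

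Ptch1 encodes the Hedgehog receptor that keeps Smo inactive until ligand binds. The brightest probe set, 1428853_at, had signals of 1379 at E16, 1819 at E18 and 1196 at P3, and 1439663_at had 435.0 at E16, 258 at E18 and 191 at P3. The first was highest at E18 and the second at E16, so they share only the lowest stage, P3. In P3 against E16, Ptch1 was 1.15-fold lower by the first probe set and 2.28-fold lower by the second, and after quantile normalization the first turned to 1.12-fold higher and the second, at 1.96-fold lower, no longer passed the threshold. At E18 against E16 the log2 differences were 0.40 and -0.75, and at P3 against E18 they were -0.60 and -0.44, the comparison in which the pair differed least. The other probe set, 1450824_at, was below the floor at every stage, with signals of 12.7 at E16, 7.2 at E18 and 15.4 at P3.

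Promoter windows from RefSeq (build GRCm38.p6) are shown for Hhip and Gas1, the genes with the largest differences, and for Ptch1, a classical Gli target. Each is a 300-base window around an annotated gene start as the RefSeq table gives it. Capitals mark the GC box GGGCGG or its complement CCGCCC, a common promoter element. The windows are chr8:80057959-80058258 on the minus strand for Hhip, chr13:60177486-60177785 on the minus strand for Gas1 and chr13:63565686-63565985 on the minus strand for Ptch1.
Hhip: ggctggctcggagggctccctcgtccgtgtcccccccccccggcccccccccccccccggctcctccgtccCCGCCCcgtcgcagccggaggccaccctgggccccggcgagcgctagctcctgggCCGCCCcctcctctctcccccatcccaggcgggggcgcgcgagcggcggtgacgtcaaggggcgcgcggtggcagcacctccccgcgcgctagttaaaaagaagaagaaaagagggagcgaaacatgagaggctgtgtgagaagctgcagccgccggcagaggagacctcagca
Gas1: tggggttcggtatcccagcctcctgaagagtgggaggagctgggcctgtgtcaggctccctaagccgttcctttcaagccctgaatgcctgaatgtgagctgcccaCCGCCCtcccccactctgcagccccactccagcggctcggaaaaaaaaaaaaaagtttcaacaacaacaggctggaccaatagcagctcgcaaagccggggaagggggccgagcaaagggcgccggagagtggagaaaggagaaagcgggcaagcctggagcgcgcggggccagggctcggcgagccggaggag
Ptch1: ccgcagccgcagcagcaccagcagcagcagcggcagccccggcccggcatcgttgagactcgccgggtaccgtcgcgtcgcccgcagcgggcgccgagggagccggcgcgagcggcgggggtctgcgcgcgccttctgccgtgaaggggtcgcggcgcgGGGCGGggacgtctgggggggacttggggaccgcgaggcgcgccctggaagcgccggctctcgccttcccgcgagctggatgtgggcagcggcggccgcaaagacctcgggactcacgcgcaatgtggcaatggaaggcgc
The table held windows for 7 of the 9 genes. The GC box was in 5 of these 7 (Gas1, Gli2, Gli3, Hhip and Ptch1) and in 35.7% of all 32851 windows. The Gli consensus GACCACCCA or its complement TGGGTGGTC was in 0 of the 7 and in 0.253% of all windows. Absence of these letters from a short window says nothing of Gli binding elsewhere at a gene. The GC content of the 3 windows was 73.7% for Hhip, 62.3% for Gas1 and 76.3% for Ptch1.

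Gas1 encodes a membrane-anchored co-receptor that was first found as a gene of growth-arrested cells. Its brightest probe set, 1416855_at, had signals of 413 at E16, 372 at E18 and 2035 at P3. The 1448494_at signals were 82.9 at E16, 55.8 at E18 and 142 at P3, and those of 1456322_at were 38.0, 15.8 and 97.1 in the same order of stages. All 3 probe sets were highest at P3 and lowest at E18. In P3 against E16, Gas1 was 4.93-fold higher by the first probe set, 1.71-fold by the second and at least 1.18-fold by the third, whose ratio as deposited was 2.56. Only the first of these passed 2-fold. Of all measured probe sets, 99.2% lay below the first, 90.9% below the second and 73.7% below the bound of the third.

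At P3 against E18, Gas1 was 5.47-fold higher by its brightest probe set, and at least 1.73-fold and at least 1.18-fold higher by the others, whose ratios as deposited were 2.54 and 6.16. At E18 against E16 the brightest probe set was 1.11-fold lower. The direction at P3 is thus the same in all 3 probe sets, while the size ranges widely. Relative to the median of all probe sets, the brightest one was 2.58 higher on the log2 scale in P3 against E18 as deposited and 2.77 after quantile normalization, and 2.45 and 2.72 higher in P3 against E16. Markers of dividing cells, given because Gas1 is tied to growth arrest, had 7 of 7 measured genes past 2-fold downwards in P3 against E16 (15.6% of all genes), 7 of 7 in P3 against E18 (11.8% of all) and 0 of 7 in E18 against E16 (8.14% of all). Their summed signal was 11694 at E16, 9623 at E18 and 2376 at P3, and its part in the Gas1 or Hhip differences was not tested. In pooled tissue, fewer cells of a type and less RNA per cell cannot be told apart.

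Boc and Cdon encode related co-receptors of the immunoglobulin superfamily. The Boc probe set above the floor, 1427516_a_at, had signals of 211 at E16, 283 at E18 and 294 at P3. Boc was by this measure 1.39-fold higher at P3 than at E16. The other 2 Boc probe sets stayed below the floor, with ratios as deposited 1.33-fold lower at P3 than at E16 by each. Of these, the platform annotation lists 1427517_at with the same sequence record as 1427516_a_at. For Cdon the brighter probe set, 1434957_at, had 573 at E16, 465 at E18 and 384 at P3. Cdon was thus 1.49-fold lower at P3 than at E16, under the threshold, and its other probe set, below the floor throughout, was 1.71-fold lower as deposited. Among the 3 co-receptors, Gas1 alone had a measured probe set past 2-fold in any of the 3 comparisons. Both Boc and Cdon also act in muscle precursors, whose markers were sparse: of 6 skeletal muscle genes 2 reached the floor at E16, 1 at E18 and 2 at P3.

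Smo encodes the seven-pass membrane protein that passes the signal on. By 1427049_s_at the signals were 1258 at E16, 1118 at E18 and 1159 at P3. By 1427048_at, which the platform annotation lists with the same sequence record, they were 959 at E16, 534 at E18 and 944 at P3. Both probe sets gave nearly equal signals at P3 and E16, with log2 differences of -0.12 and -0.02, which turned to 0.26 and 0.37 after quantile normalization and to 0.05 and 0.15 after median scaling. At E18 they parted, with 1.13-fold and 1.80-fold lower signals than at E16. The other probe set, 1442215_at, remained below the floor, with 33.3 at E16, 52.2 at E18 and 42.2 at P3.

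**Figure D2:**
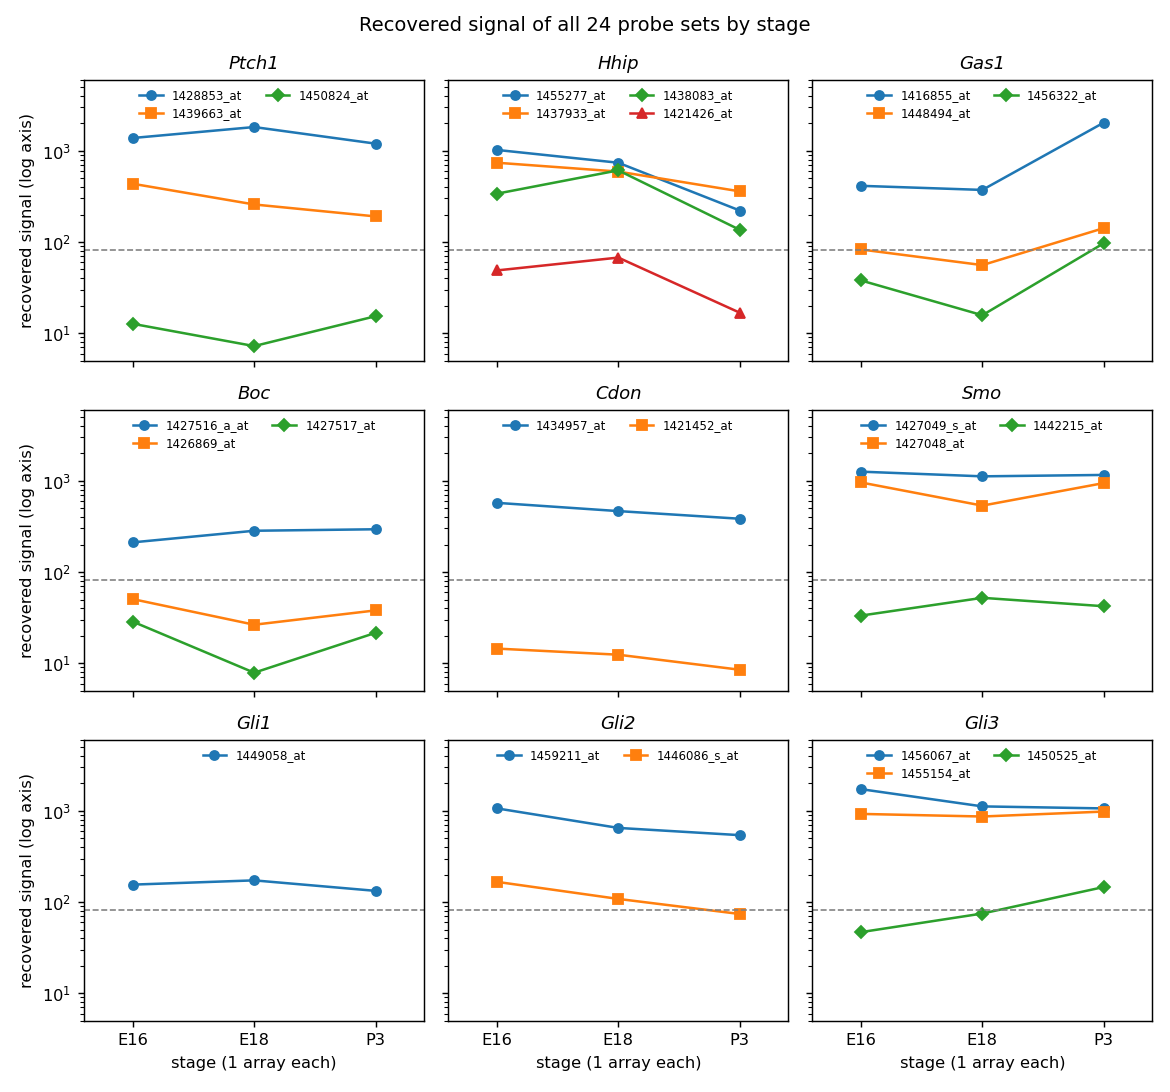
Recovered signal on a log axis of all 24 probe sets at E16, E18 and P3, 1 panel per gene, 1 array per stage. The dashed line is the floor of 82.0; all measured Hhip lines end lowest at P3, all Gas1 lines end highest at P3, and the Gli1 line stays between 133 and 173.

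The Gli genes encode zinc-finger transcription factors: Gli1 acts as an activator, Gli2 mainly as an activator and Gli3 mainly as a repressor. Gli1, often used as a readout of pathway activity, is represented by 1 probe set, 1449058_at, which had 155 at E16, 173 at E18 and 133 at P3. Its largest difference was 1.30-fold lower at P3 than at E18, within the SD between probe sets of 1 gene. At P3 against E16 it was 1.17-fold lower and at E18 against E16 1.11-fold higher.

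Gli2 signals as deposited were lower with each stage, but in P3 against E18 the log2 difference of the brightest probe set was -0.26 as deposited and 0.04 after quantile normalization. By 1459211_at the signals were 1063 at E16, 649 at E18 and 541 at P3, and by 1446086_s_at they were 167, 108 and 74.0 in the same order of stages. In P3 against E16 these were 1.97-fold and at least 2.03-fold lower, either side of the threshold, and after quantile normalization 1.55-fold and at least 1.96-fold lower. The platform annotation lists the pair with the same sequence record, so the 2 cannot be counted as independent measurements. At E18 against E16 the signals were 1.64-fold and 1.54-fold lower. Relative to the median of all probe sets, the Gli2 log2 differences in P3 against E16 were -0.83 and -0.87 as deposited and -0.64 and -0.98 after quantile normalization.

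The Gli3 probe sets did not move alike. The brightest, 1456067_at, had 1727 at E16, 1117 at E18 and 1062 at P3. The signals of 1455154_at were 924 at E16, 866 at E18 and 981 at P3, and those of 1450525_at were 46.8, 74.9 and 146 in the same order of stages. In P3 against E16, Gli3 was therefore 1.63-fold lower, 1.06-fold higher and at least 1.78-fold higher, depending on the probe set. None passed 2-fold with the floor, though the third had a ratio as deposited of 3.12. No direction of Gli3 between E16 and P3 can be given.

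Among the 9 genes, Hhip, Ptch1 and Gli1 are classical targets. Between P3 and E16, all 6 measured probe sets of these genes were lower as deposited, where 59.1% of all measured probe sets were, but by different amounts. Those of Hhip were lower by 2.06-fold to 4.62-fold, those of Ptch1 by 1.15-fold and 2.28-fold, and that of Gli1 by 1.17-fold. Under quantile normalization the brightest Ptch1 probe set was higher instead. Between E18 and E16, Ptch1 and Hhip each had probe sets in both directions, and Gli1 was 1.11-fold higher. Between P3 and E18, all 6 measured probe sets of the 3 genes were lower, where 58.6% of all measured probe sets were, and 2 of the 6 (both Hhip) were lower by at least 2-fold, where 10.5% of all were.

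The ligand Shh was highest at E18. Its brightest probe set had signals of 751 at E16, 1574 at E18 and 543 at P3. Shh was 2.10-fold higher in E18 against E16, 2.90-fold lower in P3 against E18 and 1.38-fold lower in P3 against E16. Of 9 measured epithelial markers 9 passed 2-fold upwards in E18 against E16 (8.1% of all genes did), and in P3 against E18, of 10 measured, 7 passed it downwards and 2 upwards (11.8% and 4.08% of all genes). In P3 against E16, 3 of 10 measured passed 2-fold upwards (Amelx, Ambn and Enam), where 6.58% of all genes did. Another 3 passed it downwards (Krt5, Krt17 and Epcam), where 15.6% of all did. The summed signal of the 11 epithelial markers on the array was 7239 at E16, 22162 at E18 and 12177 at P3. At P3 the sum included 5377 for Ambn, 2340 for Amelx and 936 for Enam, which had 826, 51.5 and 9.26 at E16. Of the 11, 8 reached the floor at E16, 9 at E18 and 9 at P3, and the part of these markers in the Shh values was not tested. Cdh1 (E-cadherin) had 277 at E16, 1105 at E18 and 387 at P3. It was thus higher at P3 than at E16, as were Amelx, Ambn and Enam. By their brightest probe sets, Krt5, Krt14, Krt17, Epcam and Dsp were lower at P3 than at E16, and Trp63 was nearly equal. Other measured probe sets of these genes did not all go the same way. With the floor, their log2 differences were -1.16 and 0.63 for Krt14, 0.05 for Epcam, -0.59 for Dsp and 1.19 for Trp63.

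**Figure D3:**
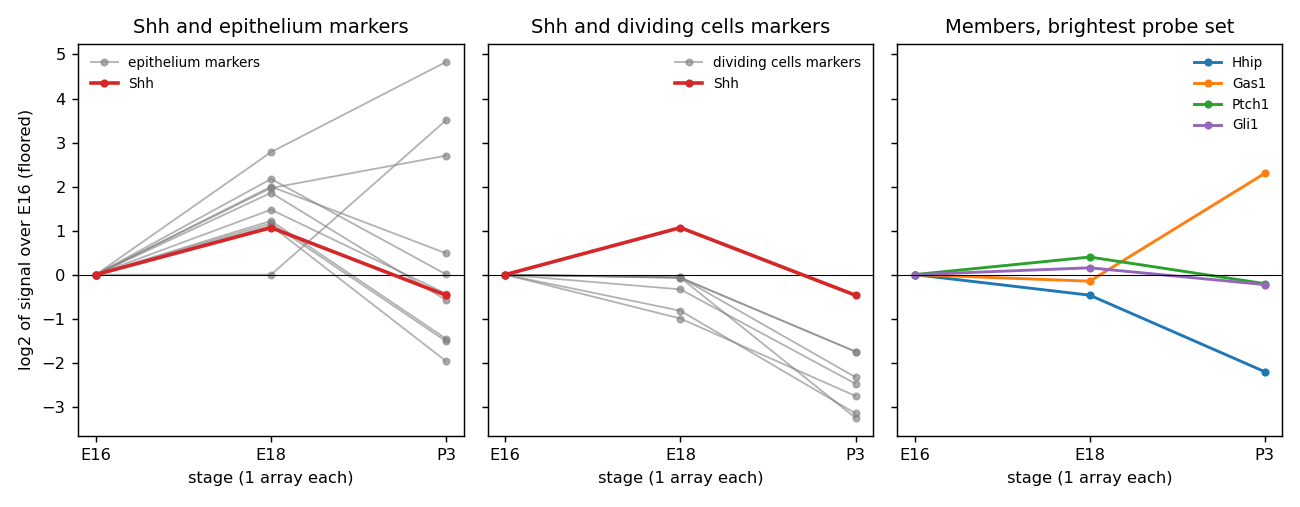
Signals relative to E16 on the log2 scale, after the floor, at E16, E18 and P3, by the brightest probe set of each gene. Shh (red) and most epithelial markers (grey, left panel) peak at E18, dividing-cell markers (grey, middle panel) are all below E16 at P3, and among the members (right panel) Hhip ends at -2.21 and Gas1 at 2.30.

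Of the 9 genes for ligands and their release, 7 were measured between P3 and E16 and none of these passed 2-fold with the floor (6.58% of all genes were higher by that much and 15.6% lower), with a median of 0.15, beside -0.17 for all genes. Scube2, which promotes the release of ligand and is named after its values were seen, had signals of 8.83 at E16, 2.48 at E18 and 125.5 at P3. Its value at P3 is therefore only bounded, at least 1.53-fold higher than at E16 and than at E18, where the ratios as deposited were 14.2 and 50.5. Apart from such a bound, Shh alone passed 2-fold at E18 against E16 and at P3 against E18. Ihh, a sister ligand, had 121 at E16, 130.1 at E18 and 135 at P3, and Dhh, which Schwann cells make, stayed below the floor at every stage. Scube3, of a family of secreted proteins that help ligand release, was 1.63-fold higher at E18 and 1.52-fold higher at P3 than at E16.

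Among other receptors and transducers, 15 genes were measured in each comparison and their medians were -0.25 at P3 against E16, -0.57 at E18 against E16 and -0.17 at P3 against E18. The medians of all genes were -0.17, -0.04 and -0.15. Gsk3b, a kinase that marks Gli proteins for processing, was 3.22-fold lower in P3 against E16 by its brightest probe set, with signals of 4268 at E16, 1660 at E18 and 1327 at P3. Its 5 other probe sets gave log2 differences from -0.56 to 0.89, so the size and direction depend on the probe set. Efcab7, which anchors the ciliary complex that binds Smo, was 2.29-fold lower at P3 than at E16, with signals of 510.3 at E16, 370 at E18 and 222 at P3. The signal of Gpr161, a ciliary receptor that restrains the pathway, was 2.16-fold lower in E18 against E16, and Prkacb, a catalytic subunit of protein kinase A, was 2.04-fold higher at P3 than at E18.

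Sufu, which holds Gli proteins in the cytoplasm, had 614 at E16, 413 at E18 and 360.0 at P3, a 1.71-fold lower signal at P3 than at E16. Kif7, a ciliary kinesin that regulates Gli proteins, had 142 at E16, 84.8 at E18 and 33.4 at P3, and was lower by at least 1.74-fold in P3 against E16, with a ratio as deposited of 4.26-fold lower. Sufu thus stayed under the threshold, and the bound for Kif7 leaves its side of the threshold unsettled.

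Of the primary cilium genes 8 were measured between P3 and E16, with 1 at least 2-fold higher (6.58% of all genes) and 2 lower (15.6% of all), and a median of -0.56, beside -0.17 for all genes. Kif3a, a motor subunit of transport into the cilium, was 2.25-fold lower at P3 than at E16, where 3 other probe sets gave log2 differences from -1.06 to -0.05. Tmem216, of the ciliary transition zone, was at least 2.04-fold lower, and another measured probe set gave -0.82 on the log2 scale, under the threshold. Bbs4, of the ciliary cargo coat, was at least 2.52-fold higher, but another measured probe set gave a bound of 0.03 on the log2 scale. At E18 against E16, 0 of 9 passed 2-fold with the floor (8.1% of all genes were higher by that much and 8.14% lower), and the median was -0.59, beside -0.04 for all genes. For 2 of the 9, Bbs4 and Ofd1 (named after its values were seen), these were bounds, and the ratios as deposited passed 2-fold.

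Genes reported as Hedgehog targets in other tissues went both ways. With the floor, 2 of 13 measured passed 2-fold upwards (6.58% of all genes) and 3 downwards (15.6% of all) in P3 against E16. Their median was -0.51, beside -0.17 for all genes. Foxd1, named after its values were seen, had 139 at E16, 3.13 at E18 and 4.2 at P3. It was at least 1.70-fold lower at E18 and at P3 than at E16, where the ratios as deposited were 44.5-fold and 33.2-fold lower. Bmp2, a growth factor of odontoblast differentiation, had 136 at E16, 1674 at E18 and 1806 at P3. Bmp4, which the dental mesenchyme makes, had 977 at E16, 670 at E18 and 355 at P3, and was 2.75-fold lower at P3 than at E16. Cdk6, a kinase of the G1 phase, was 3.23-fold lower at P3 than at E16, with a log2 difference of -0.79 by another probe set. Mycn, a growth regulator, was 2.87-fold lower at E18 than at E16, with a bound of -0.15 by another probe set.

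Foxf2, a forkhead factor of craniofacial mesenchyme, had 483 at E16, 312 at E18 and 167 at P3, which is 2.90-fold lower at P3 than at E16. Its close relative Foxf1, chosen after its values were seen, had 582 at E16, 639 at E18 and 1537 at P3, which is 2.64-fold higher, and its other measured probe set gave a bound of 0.53 on the log2 scale. Ccnd1, the gene of the G1 cyclin D1, had 810.1 at E16, 3818 at E18 and 1452 at P3. It was 4.71-fold higher at E18 than at E16, and 2 other probe sets gave log2 differences of 2.34 and 2.95.

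The pathway genes past 2-fold made 42 rescaled differences under quantile normalization and median scaling together. Of these 0 changed sign, but differences picked for passing 2-fold leave little room for that. In 6 of the 42 the difference no longer passed 2-fold. These were Efcab7, Kif3a, Tmem216 (under both scalings), Gpr161 at E18 against E16 and Ccnd1 at P3 against E18.

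**Figure D4:**
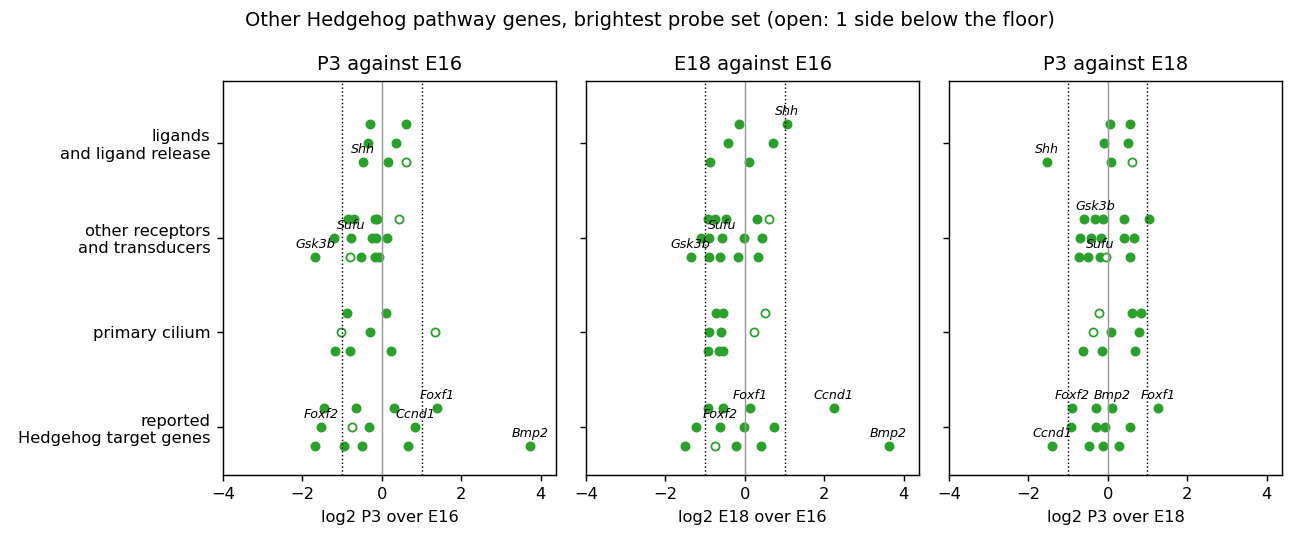
Log2 differences of other Hedgehog pathway genes by their brightest probe set, in 4 lists and 3 comparisons, with 1 array a stage; each point is a gene, open points were below the floor on 1 array and dotted lines mark 2-fold. Most points lie within 2-fold, with Bmp2 at 3.73 for P3 against E16 and Ccnd1 at 2.24 for E18 against E16.

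Likeness to a member was measured as the Euclidean distance between both log2 steps, E18 against E16 and P3 against E18, over the 3 arrays and 9853 genes at or above the floor throughout. The nearest to the brightest Ptch1 probe set, with steps of 0.40 and -0.60, were Ppp4r1l-ps (distance 0.014), Rnf145 (0.017) and Tubgcp3 (0.021). For Gli1, with steps of 0.15 and -0.38, they were Rap1gap2 (0.0080), Fat4 (0.0093) and Naa30 (0.011). As 81 genes lay within 0.1 of Ptch1 and 116 within 0.1 of Gli1, 3 arrays single out none of them.

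The arrays differed in ways that bear on every value. Over 18 probe sets of hybridisation spike-ins, the median reading on the E18 array was 2.17 times that on the E16 array, and on the P3 array 1.04 times. Actin's 3' to 5' probe set ratio, which reflects RNA integrity and labelling, was 3.87 times as high at E18 and 2.46 times at P3 as at E16, and that of Gapdh 1.42 and 0.355 times. Of 10 dental mesenchyme markers 10 reached the floor at each stage, and 7 of them passed 2-fold downwards and 2 upwards in P3 against E16, where 15.6% and 6.58% of all genes did. The counts of the other marker lists are to be read against the same shares. At P3 against E16 macrophage markers had 4 of 6 measured at least 2-fold higher, odontoblast markers 7 of 7, pericyte and smooth muscle markers 1 of 5 and endothelial markers 0 of 5, while 1 endothelial marker and 2 of 2 erythroid markers were lower. Cartilage and bone markers had 2 of 6 higher and 1 lower, and the 1 measured Schwann cell marker, Sox10, differed by -0.14 on the log2 scale. The part of these cell types, of labelling and of RNA quality in the differences above was not tested.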

How the data were processed

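The authors deposited linear ratios for 45101 probe sets, 64 of them controls. The submitters' processing notes name GCOS; how the values were scaled and centred is stated by no source used here. In 90.4% of probe sets the middle of the deposited ratios was 1 within 1e-06. In the other 4347, all values but 2 of the E16 array lay within 0.01 steps of whole multiples of 1 step per array, as if a middle signal under 10 was replaced by 10, with step factors relative to P3 of 0.718 (E16) and 1.08 (E18). From these steps the smallest signals with 1 decimal that fit within a relative 3e-07 were taken as levels. No test was run, with 1 array per stage.

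Symbols came from the platform annotation, in which 34958 probe sets have 1 symbol. Other genes are represented by their brightest probe set, the one with the highest mean level. Named are the 9 members, up to 6 genes per pathway list past 2-fold in any comparison, Shh, Sufu and Kif7, and the 3 nearest patterns of Ptch1 and Gli1. An item of this rule is not reported here. Members and lists were chosen with earlier results of these data known. On 45101 simulated probe sets the recovered level was exact within a relative 0.0001 in 82.4%, too low in 17.6% and too high in 0. Python 3.11.15, numpy 2.4.6 and pandas 2.3.3 were used. Alternatives were 2 scalings, 3 settings of the floor, leaving out probe sets that can detect several transcripts and, added after the data were seen, a tighter tolerance.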

Additional observations from a re-analysis of the deposited data

How the results depend on the processing

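Of 42 counts of members past 2-fold recomputed under 7 alternatives, 34 stayed within 1.5 times the reported count. At P3 against E16, the 5 lower became 2 under quantile normalization and 3 under median scaling, and the 1 higher became 3 with the floor halved to 41.0 and 3 with no floor. At P3 against E18, the 1 higher became 2 after quantile normalization, 3 with the floor halved and 5 with no floor. At E18 against E16, the 0 lower became 2 with no floor. Below the floor, ratios of single arrays rest on dim signals. A floor of 164, leaving out probe sets that can detect several transcripts and a tolerance of 2e-07 kept all 6 counts within that range. By the brightest probe sets, the P3 against E16 differences of Ptch1 (-0.21, then 0.17) and Smo (-0.12, then 0.26) changed sign after quantile normalization, as did the P3 against E18 differences of Gli2 (-0.26, then 0.04) and Gli3 (-0.07, then 0.33). Median scaling turned Smo to 0.05 and Gli3 to 0.03 in those comparisons. The causes were not tested. No paired analysis was possible because each stage has 1 array.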
